A study of Mus musculus with 2 samples.

Results

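Collagens are the structural proteins of the extracellular matrix, and the 44 genes described here are the protein-coding genes of the GENCODE release M21 annotation whose symbol is Col, a number, the letter a and a number, out of 21826 protein-coding genes in all. The data are DNase-seq libraries of adrenal gland tissue from 2 male B6CASTF1/J mice, F1 hybrids of a B6 and a CAST parent, at an age of 25 days. DNase I cuts DNA where chromatin is open, and stretches cut often are called DNase I hypersensitive sites (DHSs). The libraries, replicate 1 and replicate 2, form a single untreated group, so no second tissue or condition was compared and no p-value is given. The labels call them biological replicates and number the animals separately, but give both the same donor code, so the spread between them may in part be technical.

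Every collagen molecule is a triple helix of 3 chains, and each gene here encodes 1 chain. Fibrillar collagens (types I, II, III, V, XI, XXIV and XXVII) build the fibrils of capsules, vessel walls, bone and cartilage, and are made mainly by fibroblasts and related cells. Type IV collagen forms the sheet-like network of basement membranes, which lie under endothelium and around many parenchymal cells. In the adrenal gland a fibrous capsule surrounds the cortex, and a dense bed of capillaries runs between the cords of steroid-producing cells. The remaining classes decorate fibrils (the FACIT collagens), form beaded filaments (type VI), cross the cell membrane (types XIII, XVII, XXIII and XXV) or sit in basement-membrane zones (the multiplexins, types XV and XVIII).

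Replicate 1 held 130945 DHSs and replicate 2 held 157786. Height is the deposited signal of a DHS, and its median was 1.01 in replicate 1 and 0.720 in replicate 2, so heights are given per library and are read within one. All heights were whole multiples of a step that would give library totals of 120 M and 112.6 M counts if heights are CPM values, which is inferred and not stated. A promoter is called open when at least 1 DHS reached within 1 kb of an annotated start, and its height is taken from the strongest DHS there. Further DHSs were assigned to the gene whose start was nearest within 100 kb.

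A few sequences carry the contrasts described below. They are given 5′ to 3′ from the reference genome GRCm38.p6 (mm10), which is of the C57BL/6J strain, so the CAST allele of the animals may differ. The first are the 250 bases upstream of the 5′ ends of Col5a1 (chr2:27886175-27886424, plus strand), the strongest collagen promoter, and of Col3a1 (chr1:45311288-45311537, plus strand), a fibrillar gene with no promoter DHS, both read in the direction of the gene. Capitals mark the letters GGGCGG (the GC box) on either strand and TATAAA (the TATA letters) on either strand.
Col5a1 upstream: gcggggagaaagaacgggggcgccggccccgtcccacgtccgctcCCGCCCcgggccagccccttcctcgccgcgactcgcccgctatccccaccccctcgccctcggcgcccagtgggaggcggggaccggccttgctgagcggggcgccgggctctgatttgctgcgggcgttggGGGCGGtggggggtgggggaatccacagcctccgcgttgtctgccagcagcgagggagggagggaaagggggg
Col3a1 upstream: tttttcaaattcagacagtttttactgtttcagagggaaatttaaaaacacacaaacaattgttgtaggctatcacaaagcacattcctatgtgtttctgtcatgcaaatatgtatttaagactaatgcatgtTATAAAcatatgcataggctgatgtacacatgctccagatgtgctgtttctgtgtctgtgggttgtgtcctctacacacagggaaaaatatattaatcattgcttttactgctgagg
The Col5a1 stretch had a GC content of 76.4% with 28 CpG dinucleotides and 2 GC boxes. The Col3a1 stretch had a GC content of 35.2%, 0 CpG dinucleotides and 1 TATA match. The next is the whole 71 bp between the 5′ ends of Col4a4 (minus strand) and Col4a3 (plus strand), chr1:82586850-82586920, shown on the plus strand because a pair of type IV chains is transcribed outwards from it. It held none of the GC box, CCAAT or TATA letters.
Col4a4 and Col4a3 gap: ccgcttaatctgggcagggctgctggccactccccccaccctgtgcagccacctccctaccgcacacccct
The last 3 are the DHSs of their genes with the highest mean height over the libraries, all on the plus strand. They are a site inside Col1a1 (chr11:94937121-94937260) and distal sites of Col23a1 (chr11:51539721-51539940) and Col16a1 (chr4:130050561-130050720). Capitals mark matches on either strand to a core of the CTCF motif, which is CA, AG and GGC in this order with 2 free bases in each space, or to TGANTCA, the AP-1 motif.
Col1a1 site: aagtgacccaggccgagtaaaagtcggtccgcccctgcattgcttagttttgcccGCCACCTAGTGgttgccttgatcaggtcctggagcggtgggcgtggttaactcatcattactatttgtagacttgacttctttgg
Col23a1 site: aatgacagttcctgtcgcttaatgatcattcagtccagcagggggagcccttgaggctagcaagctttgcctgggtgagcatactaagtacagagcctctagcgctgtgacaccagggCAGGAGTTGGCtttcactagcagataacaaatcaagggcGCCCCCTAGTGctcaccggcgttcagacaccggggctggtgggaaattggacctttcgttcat
Col16a1 site: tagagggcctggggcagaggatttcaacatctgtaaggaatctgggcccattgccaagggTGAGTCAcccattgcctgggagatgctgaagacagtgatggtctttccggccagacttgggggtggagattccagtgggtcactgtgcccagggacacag
A match is a run of letters and is no measure of binding.

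Most collagen promoters were open, but with low DHSs. In replicate 1, 37 of the 44 were open (84.1%, 95% Wilson interval 70.6 to 92.1%), against 69.4% of all genes. In replicate 2, 34 of the 44 were open (77.3%, 63.0 to 87.2%), against 69.1% of all genes. Both libraries agreed on 34 open genes (77.3%, against 65.8% of all genes) and on 7 closed genes (against 27.3% of all genes), while 3 genes were open in a single library (against 6.94% of all genes, or 1514 genes). This agreement is by gene and does not require the same DHS in both libraries. The intervals cover counting error over genes only. That of replicate 2 includes the background share, and that of replicate 1 begins just above it. The order against all genes depended on weak DHSs: 25 collagens (56.8%) were open in both libraries in the shorter peak lists, against 60.6% of all genes, and 20 (45.5%) among the 50000 strongest DHSs, against 57.8% of all genes. With closed promoters set to 0, the median collagen promoter height was 1.17 in replicate 1 and 1.24 in replicate 2, against 4.02 and 2.61 over all genes. Among open promoters the medians were 1.89 and 1.54 for collagens, against 8.85 and 6.25 for all genes. In whole adrenal tissue a low height can come from fewer cells with the site open or from less cutting per cell, and these cannot be told apart.

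**Figure D1:**
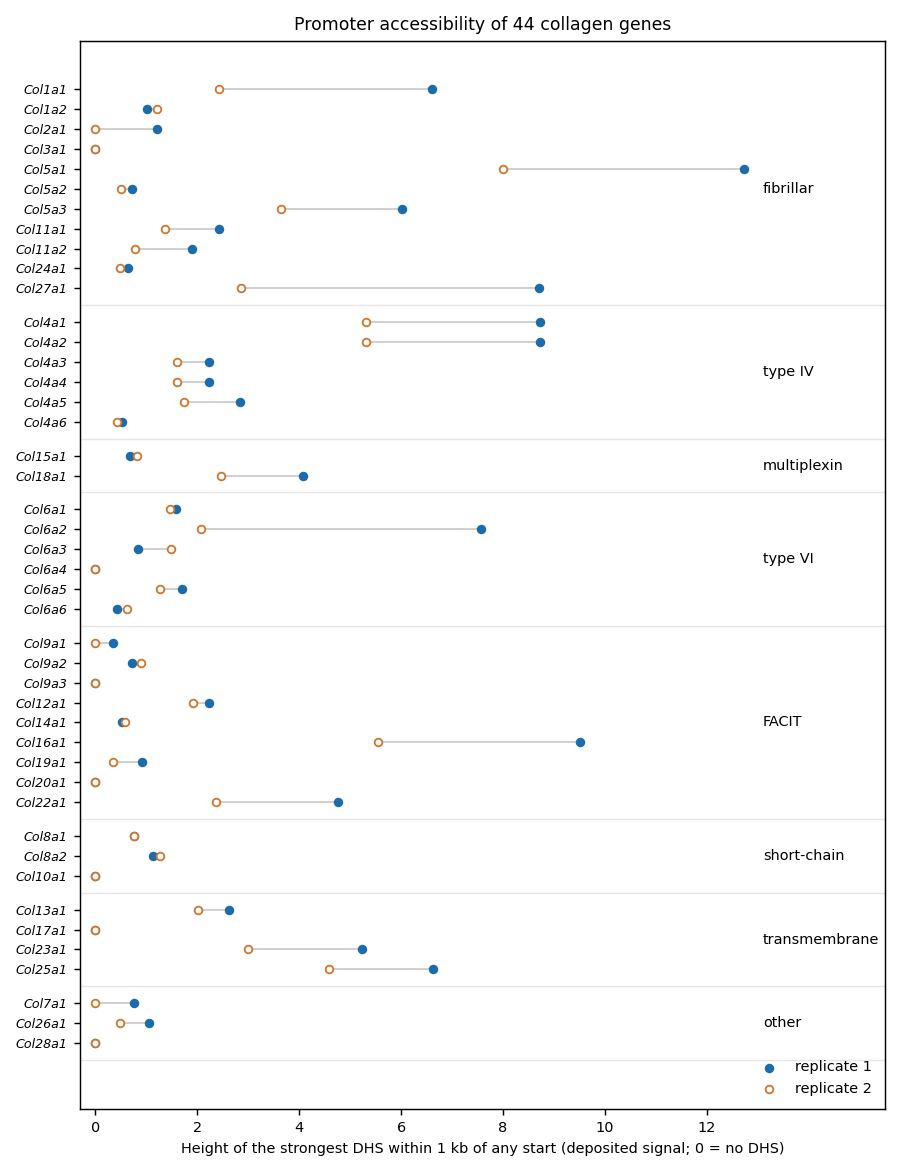
Height of the strongest DHS within 1 kb of any start (x axis, deposited signal) for each of the 44 collagen genes, grouped by class down the page; filled points are replicate 1, open points replicate 2, a grey line joins them and 0 means no DHS. Col5a1 stands highest in both libraries at 12.7 and 7.99, and 7 genes sit at 0 in both.

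Promoter base composition separates genes with broad from genes with restricted activity in many tissues, and CpG-rich promoters are usually open. A promoter was called CpG-rich when the 500 bp on each side of its 5′ end had a CpG observed-to-expected ratio of at least 0.6 and a GC content of at least 50%. This held for 11 of the 44 collagens (25.0%), against 44.4% of all genes. Of these CpG-rich collagens, 11 were open in replicate 1 and 10 in replicate 2, against 98.5% and 97.2% of all CpG-rich genes. Here and below, CpG content is that of the 5′ end, while an open promoter can lie at any start of the gene. Of the CpG-rich collagens counted as open, Col27a1 had no DHS within 1 kb of its 5′ end in either library. Col15a1 had none there in replicate 2. With closed promoters at 0, their median height was 2.62 in replicate 1 and 2.02 in replicate 2, against 11.7 and 8.31 for all CpG-rich genes. Of the 33 CpG-poor collagens, 26 (78.8%) were open in replicate 1 and 24 (72.7%) in replicate 2, against 46.2% and 46.8% of all CpG-poor genes. Their open promoters had median heights of 1.64 and 1.41, against 3.75 and 2.49 for all open CpG-poor genes. In the longer lists, collagen promoters were thus open more often than the background within the CpG-poor class, and lower than the background in each class, as a description of these 2 libraries without a test.

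**Figure D2:**
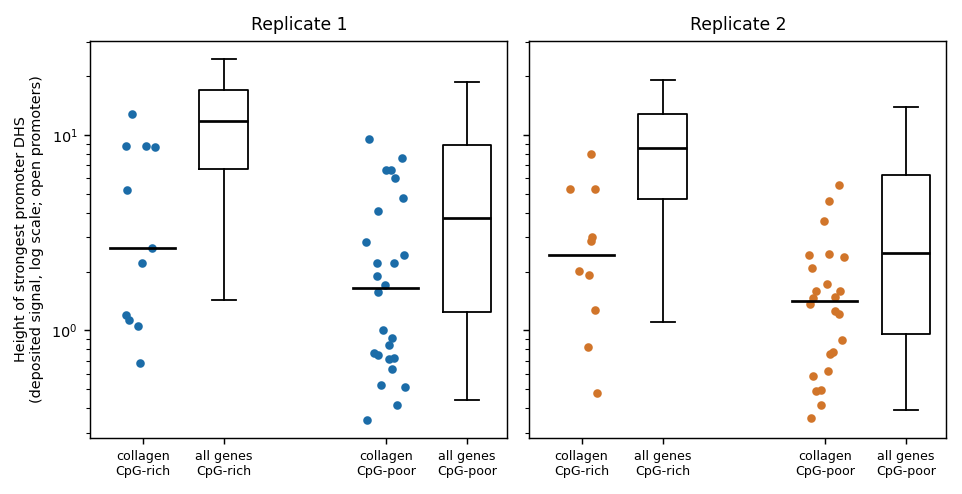
Height of the strongest promoter DHS (y axis, log scale, deposited signal) for open promoters, split by CpG content, in replicate 1 (left panel) and replicate 2 (right panel). Points are collagen genes with a bar at their median, and boxes give the quartiles and median of all genes with whiskers at the 5th and 95th percentiles; the collagen medians of 2.62 and 1.64 in replicate 1 lie below the all-gene medians of 11.8 and 3.75.

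The fibrillar genes ranged from the strongest collagen promoter to closed ones. The main type I and type III chains, which make up most fibrils of connective tissue, were weak or closed at their own 5′ ends, while Col5a1 of type V stood highest in both libraries. Of the 11 fibrillar promoters, 9 were open in both libraries and 10 in replicate 1.

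Col5a1 (ENSMUSG00000026837.15), the type V chain that helps to start type I fibrils, had a promoter height of 12.7 in replicate 1 and 7.99 in replicate 2. Its DHS centred about 100 bp upstream of the 5′ end, within the GC-rich stretch shown above. Of all protein-coding genes, 76.7% in replicate 1 and 72.2% in replicate 2 had a lower promoter height. It also had the highest number of assigned DHSs among collagens in replicate 1, 40, with 28 in replicate 2. Col5a3, the third type V chain, had heights of 6.02 and 3.64 from a DHS at its 5′ end. Col5a2, which joins Col5a1 in the common type V trimer, had 0.717 and 0.497. Col5a1 thus stood far above its partner chain in each library.

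Col1a1 (ENSMUSG00000001506.10) had a height of 6.61 in replicate 1 and 2.43 in replicate 2, but the DHS lay inside the gene. Its centre was 966 bp and 976 bp downstream of the 5′ end, in intronic sequence, and its letters are given above with 1 CTCF match. Within 250 bp of the 5′ end the strongest Col1a1 DHS had a height of 0.892 in replicate 1 and 0.915 in replicate 2. Col1a2, the second chain of type I, had 1.01 and 1.22, from a site 766 bp and 736 bp downstream of its 5′ end. That site centred 88 bp and 58 bp downstream of another annotated start of Col1a2, 679 bp inside the gene. Within 250 bp of its 5′ end Col1a2 had no DHS in either library.

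Col3a1 (ENSMUSG00000026043.18), whose product mixes with type I in vessel walls and distensible tissue, had no promoter DHS in either library. No base within 1 kb of its starts reached a false discovery rate of 0.05 in the deposited list of either library. It had 2 assigned DHSs in replicate 1 and 6 in replicate 2, with summed heights of 0.867 and 2.34. Its neighbour Col5a2 lies on the opposite strand, 24614 bp beyond the end of Col3a1, and 1 of the 2 and 3 of the 6 DHSs assigned to Col3a1 lay inside Col5a2.

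The fibrillar chains known from cartilage differed widely. Col2a1, the main fibrillar chain of cartilage, had 1.20 in replicate 1 and no promoter DHS in replicate 2. Col11a1, which limits fibril width in cartilage, had 2.43 and 1.36 from a DHS at its 5′ end. Col11a2 had 1.89 and 0.773, from different DHSs on opposite sides of the start. Col24a1, a minor fibrillar chain, had 0.633 and 0.489. Col27a1, another minor chain found in cartilage, had 8.71 and 2.85, from a DHS at a start inside the gene, and its annotated 5′ end was closed in both libraries.

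Type IV promoters were open in both libraries for 6 of 6 genes, against 65.8% of all genes, a share inside the 95% Wilson interval of 61.0 to 100% in each library. The genes lie head to head in 3 pairs that are transcribed outwards, so the 6 promoter values rest on 4 separate DHSs. Col4a1 (ENSMUSG00000031502.11) and Col4a2 (ENSMUSG00000031503.13), the chains of the network found in nearly all basement membranes, have annotated 5′ ends that overlap by 22 bp on chromosome 8. They shared a DHS with a height of 8.72 in replicate 1 and 5.30 in replicate 2, centred within 20 bp of both ends. Col4a3 and Col4a4, chains of the mature network of the kidney filter and of some other tissues, shared a DHS over their 71-bp gap with heights of 2.22 and 1.60. The pair on chromosome X was split. Col4a5 had 2.84 and 1.73 at its 5′ end, and Col4a6, with its start 1309 bp away, had 0.517 and 0.418 from a DHS of its own. Col4a1 and Col4a2 therefore stood above the other 4 type IV genes in both libraries.

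Set side by side, fibrillar genes had a median promoter height of 1.89 in replicate 1 and 1.22 in replicate 2, and type IV genes of 2.53 and 1.67. The difference of the class medians was −0.64 in replicate 1 and −0.45 in replicate 2, small against ranges of 0 to 12.7 for fibrillar and 0.517 to 8.72 for type IV genes in replicate 1. The median number of assigned DHSs was 5 in replicate 1 and 10 in replicate 2 for fibrillar genes, and 5 and 7.5 for type IV genes. Per 100 kb of the stretch nearest to the gene's starts, the medians were 6.74 and 8.76 for fibrillar genes, and 4.38 and 6.38 for type IV genes. Median summed heights were 4.46 and 6.54 for fibrillar genes, and 10.9 and 6.81 for type IV genes. In the mean of the libraries, the order of the classes in DHS number reversed with a distance limit of 20 kb but not of 50 kb. At 50 kb the libraries differed in sign, with −0.5 in replicate 1 and 1 in replicate 2. The order also reversed under another assignment, from a mean difference of 1.25 to −1.75 when a DHS inside a gene went to that gene first. The classes are therefore not set apart by DHS number.

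**Figure D3:**
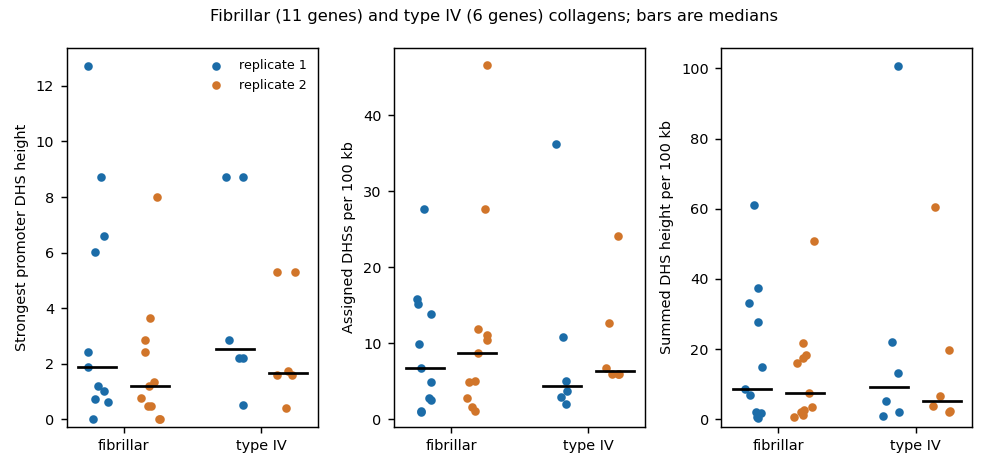
Strongest promoter DHS height, assigned DHSs per 100 kb and summed DHS height per 100 kb (y axes; heights in deposited signal) for 11 fibrillar genes (left in each panel) and 6 type IV genes (right), with blue points for replicate 1, orange points for replicate 2 and bars at the medians. The point clouds of the classes overlap in each panel; the high type IV point at 36.2 and 24.1 DHSs per 100 kb is Col4a2, whose nearest-start stretch is 16.6 kb long.

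Among the other collagens, heights were highest at the FACIT gene Col16a1, with 9.51 in replicate 1 and 5.55 in replicate 2, from a DHS on its 5′ end. Col6a2, a chain of the beaded filaments of type VI, had 7.57 and 2.08, and its usual partners Col6a1 and Col6a3 had 1.57 and 1.46, and 0.842 and 1.48. The transmembrane collagen Col25a1 had 6.62 and 4.57 from a DHS at a start 49390 bp inside the gene, while at its 5′ end the values were 0.467 and 0.391. Col23a1, also transmembrane, had 5.23 and 3.002. Col22a1, a FACIT collagen of tissue junctions, had 4.76 and 2.36. Col13a1, which is transmembrane and known from the neuromuscular junction, had 2.62 and 2.02, and the FACIT gene Col12a1 had 2.22 and 1.92. The 8 further genes open in both libraries (Col6a5, Col6a6, Col9a2, Col14a1, Col19a1, Col8a1, Col8a2 and Col26a1) lay between 0.417 and 1.71 in replicate 1 and between 0.355 and 1.27 in replicate 2. For Col6a6, the strongest promoter DHS of each library overlapped no DHS of the other.

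The multiplexins paired weak to middling promoters with strong distal sites. Col18a1, whose C-terminal fragment is endostatin, had 4.07 in replicate 1 and 2.47 in replicate 2 at a start 77120 bp inside the gene, and 3.16 and 2.32 at its 5′ end. Col15a1 had 0.683 and 0.826, at a different start in each library.

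The genes closed in both libraries were Col3a1, the type VI chain Col6a4, the FACIT genes Col9a3 and Col20a1, Col10a1 of hypertrophic cartilage, Col17a1 of the hemidesmosomes of skin, and Col28a1. Col6a4 had 13 bases at a false discovery rate of 0.05 or less in replicate 1, the lowest rate being 0.0486, and the other closed promoters had no such base in that library. None of the 10 promoters closed in replicate 2 had one there. Col2a1, the cartilage FACIT gene Col9a1 at 0.350 and Col7a1 of the anchoring fibrils of skin at 0.750 were open in replicate 1 alone. Strict open calls were fewer, since 30 of the 37 open promoters in replicate 1 and 26 of the 34 in replicate 2 reached a rate of 0.001. The same numbers of collagens were open in the shorter peak lists. Over all genes, 14255 were open in the shorter list of replicate 1, against 15150 in the longer. In replicate 2 these were 13520 against 15092, so collagens lost a larger part of their open calls than all genes did.

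Most collagen signal lay away from promoters. Of the 44 genes, 43 had at least 1 assigned DHS in each library, against 84% of all genes in replicate 1 and 88% in replicate 2. The collagens together had 422 assigned DHSs in replicate 1 and 420 in replicate 2, of which 347 and 353 lay outside the promoter window of any gene. Of the summed height assigned to collagens, 20.5% and 19.5% came from promoter DHSs, against 56.4% and 57.1% over all genes. Lists of cell type markers had low shares too, with 27.6% and 24.1% for capsule and fibroblast genes, 13.8% and 17.0% for endothelial genes and 23.6% and 18.8% for cortical genes, so a low promoter share was not particular to collagens. The median collagen had 6 and 9 DHSs, against 3 and 4 over all genes. Collagen genes are long, with a median of 114.4 kb against 17.4 kb, and the median stretch nearest to their starts was 133.7 kb against 46.6 kb. Per 100 kb of that stretch, the number of DHSs was 6.32 and 7.28 at the median collagen, against 6.87 and 7.31 over all genes, so the higher number went with longer territories. Summed height per 100 kb was 8.45 and 6.43, against 16.3 and 11.5.

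Distal collagen DHSs were often inside the gene they were assigned to. This held for 63.4% in replicate 1 and 62.9% in replicate 2, against 46.7% and 45.6% of all distal DHSs, a measure that rises with gene length. Few had their centre in an exon of any gene, 8.36% and 9.35%, against 11.9% and 11.3%. Of the DHSs assigned to collagens, 60.4% in replicate 1 and 61.0% in replicate 2 overlapped a DHS of the other library, against 65.2% and 60.2% over all genes. Footprints, short protected stretches inside a DHS called by the authors, were found in 83.2% and 65.7% of collagen DHSs, against 79.97% and 67.0% over all genes. At promoters alone the footprinted shares were 81.3% and 59.7%, against 77.8% and 69.0%.

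By the mean of the libraries, the strongest distal site was an intronic DHS of Col23a1, 249910 bp downstream of the 5′ end, with a height of 15.6 in replicate 1 and 8.72 in replicate 2. It was higher than any collagen promoter in its library, and its sequence above has 2 CTCF matches. The Col16a1 site, 2800 bp inside the gene, had 11.5 and 6.27 and 1 AP-1 match. An intronic site of Col15a1 (chr4:47234981-47235160), 26910 bp inside the gene, had 9.04 and 4.31. A site upstream of Col13a1, at −1522 bp from its 5′ end (chr10:61980541-61980720) had 10.4 and 4.01, and one inside Col8a2 (chr4:126309981-126310160), a short-chain collagen of vessel and corneal membranes, had 9.09 and 3.40, each with 1 CTCF match. The Col5a1 site 50296 bp inside the gene (chr2:27936641-27936800) had 8.62 and 3.85, with 1 AP-1 match. The Col18a1 site upstream, at −44912 bp and outside any protein-coding gene (chr10:77211361-77211560), had 6.22 and 4.81, with 2 AP-1 matches. These 7 sites held a footprint in replicate 1.

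**Figure D4:**
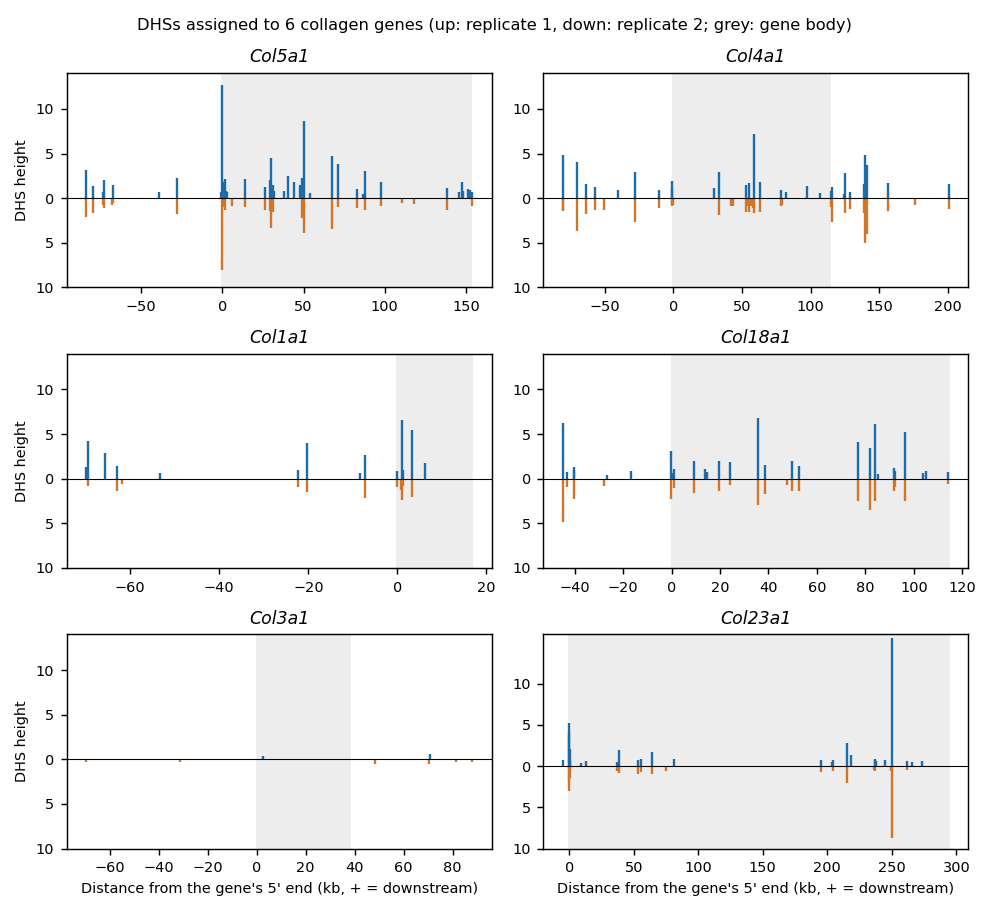
DHSs assigned to Col5a1, Col1a1, Col3a1, Col4a1, Col18a1 and Col23a1, placed by distance from the 5′ end of the gene (x axis, kb, positive downstream) with their height (y axis, deposited signal) drawn upwards for replicate 1 and downwards for replicate 2; grey marks the gene body. Col5a1 has its highest DHS at the 5′ end, Col23a1 has its highest far inside the gene, Col18a1 has sites spread over its body and upstream, and Col3a1 has 2 and 6 low DHSs.

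Summed over all assigned DHSs, Col5a1 had 84.1 in replicate 1 and 46.3 in replicate 2. Col4a1 had 58.9 and 52.9 from 29 and 34 DHSs, above Col5a1 in replicate 2, and Col18a1 had 58.5 and 37.8 from 28 and 21. Col4a2 had 16.7 and 10.02 from 6 and 4 DHSs. The split within this pair came in part from the assignment, because its starts nearly coincide and 9 of the 29 and 11 of the 34 DHSs of Col4a1 lay inside Col4a2. Only 10 of the 29 and 13 of the 34 lay in the body of Col4a1 itself. The rest lay beyond the end of Col4a1 and were within 100 kb only of starts inside the gene. As a pair they had 35 and 38 DHSs with summed heights of 75.6 and 62.9. Col23a1 had 46.9 and 25.8, Col15a1 43.0 and 35.7, Col13a1 40.0 and 22.6, Col16a1 39.1 and 20.4, Col1a1 34.5 and 14.9, Col6a1 30.0 and 15.8, and Col22a1 24.9 and 20.5. Across the 44 genes the libraries ranked summed height alike, with a Spearman rho of 0.956, and promoter height with a rho of 0.928, against 0.949 and 0.967 across all genes. The number of DHSs was ranked less alike, with a rho of 0.762, against 0.849 across all genes. These are correlations across genes, which share libraries and are not independent replicates.

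Motif letters were counted in distal DHSs on both strands. AP-1 letters stood in 19.9% of collagen DHSs in replicate 1 (95% Wilson interval 16.03 to 24.4%) and 15.9% in replicate 2 (12.4 to 20.04%), against 13.9% and 11.6% of all distal DHSs. TEAD letters (GGAATG) stood in 14.1% and 11.6%, against 9.59% and 8.32%. NR5A letters (CAAGGTCA), read by the steroidogenic factor of cortical cells, stood in 4.61% and 3.40%, against 3.27% and 2.75%. CTCF letters stood in 12.7% and 8.50%, against 16.4% and 11.3%. For RUNX (TGTGGTT) the shares were 3.17% and 2.83%, against 3.33% and 3.42%, for SOX (ACAATGG) 2.59% and 1.42%, against 1.69% and 1.63%, for ETS (CCGGAAG) 0.288% and 0.850%, against 1.79% and 1.58%, and for NFI (TTGGC and GCCAA with 5 free bases between) 0.576% and 0.283%, against 0.186% and 0.121%. The ETS shares rest on 1 and 3 collagen DHSs and the NFI shares on 2 and 1. The 95% Wilson intervals for NR5A, CTCF, RUNX, SOX and NFI included the share of all distal DHSs in each library. Collagen DHSs were wider, with medians of 172 bp and 151 bp against 160 bp and 141 bp, and a wider site holds more letters by position alone. The search letters share no fixed overlap, and CTCF was added after the sequences had been seen. In RefSeq promoters on GRCm38.p6, 250 bases before to 50 after a start, 35 of the 44 collagens matched with 38 promoters. GC box letters stood in 60.5% of them against 35.7% of all promoters, CCAAT letters in 34.2% against 37.4%, and TATA letters in 13.2% against 13.6%.

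Genes that build, move and bind collagen were described in the same way. Of 18 genes for modification and folding, 18 were open in both libraries, against 65.8% of all genes, with median heights of 8.74 in replicate 1 and 4.81 in replicate 2. P4ha1 and P4hb, subunits of the prolyl hydroxylase that stabilises the helix, had 29.2 and 19.9, and 27.8 and 19.96, and Ppib, a prolyl isomerase, had 20.97 and 15.95. Of 17 measured genes for export, processing and cross-linking, 16 were open in both, led by mean height by the coat protein gene Sec23a at 19.8 and 16.3, the cargo receptor Mia3 at 17.2 and 10.2 and Sar1b at 6.96 and 5.53, while the cross-linking enzyme Loxl2 was closed in both. A promoter DHS in these lists can belong to a neighbouring gene's start.

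The counts of open partners that follow are read against the 65.8% of all genes open in both libraries. Those of collagen receptors and of collagenases, gelatinases and their inhibitors lay near that share. Among 16 basement-membrane partners, 15 were open in both libraries and Nid1 in replicate 1 alone, with median heights of 6.04 and 3.29. Hspg2, the perlecan gene, had 20.1 and 10.4, and the laminin genes Lamc1 and Lama1 had 14.2 and 12.4, and 12.9 and 6.18. Among 12 partners of fibrils, 6 were open in both, with median heights of 0.292 and 0.258. The fibrillin gene Fbn1 had 2.28 and 1.33, fibronectin (Fn1) 6.17 and 3.44 and Thbs1 7.08 and 1.95, while Bgn, Lum, Fmod, Tnxb and Comp were closed in both and Postn was open in replicate 1 alone. Of 10 collagen receptors 7 were open in both, led by the integrin genes Itgb1 at 16.4 and 10.9 and Itga1 at 4.64 and 4.23 and the receptor kinase Ddr1 at 7.20 and 5.45. The Itga1 promoter DHS was nearest to another gene's start in each library. Its height exceeded the summed heights of 3.65 and 4.13 assigned to Itga1. Gp6 and Lair1, receptors of platelets and leukocytes, were closed, and Itga10 was open in replicate 1 alone. Of 8 collagenases, gelatinases and their inhibitors 5 were open in both, led by the inhibitor genes Timp3 at 9.53 and 5.47 and Timp2 at 8.64 and 6.06 and the membrane-bound collagenase Mmp14 at 4.12 and 2.70. Mmp8 and Mmp9 were closed, and Mmp13 was open in replicate 2 alone.

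The tissue label was checked against defining markers. Counts of open markers are read against the 65.8% of all genes open in both libraries, and several lay near it. Cortical markers were open in both libraries for 7 of 7 genes, with promoter heights that summed to 47.1 in replicate 1 and 25.0 in replicate 2. Of chromaffin cells of the medulla, Th, which starts catecholamine synthesis, had 1.37 and 1.13 and Chga, of their storage granules, had 5.67 and 2.48, while Pnmt, which makes adrenaline, was closed; these genes were chosen after their values were seen. Of cells known to make collagen, markers open in both libraries were 7 of 10 for capsule and fibroblasts, summing to 20.7 and 12.2 with Lum at 0, 6 of 8 for endothelium, summing to 13.2 and 9.48, and 5 of 6 for pericytes and smooth muscle, summing to 11.6 and 7.23. Sums depend on list length and on a few genes, such as Pdgfra at 9.40 and 4.08 and Gli1 at 6.04 and 3.12 for capsule and fibroblasts. Median heights were 0.758 and 0.897 for capsule and fibroblasts, 1.17 and 1.05 for endothelium, and 1.45 and 0.973 for pericytes and smooth muscle. The order of these lists by median thus differed from that by sum. Cartilage markers were open for 3 of 6, summing to 12.6 and 7.19 with Matn1 and Comp at 0. Of 6 kidney markers none was open in both libraries, and they summed to 1.44 and 0.426. Of 6 lymphocyte and macrophage markers 0 had a promoter DHS in replicate 1 and 3 had one in replicate 2, summing to 0 and 3.71. These sums leave out DHSs away from promoters. The median number of assigned DHSs was 1 and 0 for kidney markers, and 2.5 and 3 for lymphocyte and macrophage markers. Single genes stood far above, with summed heights of 28.1 and 13.4 for the kidney marker Pax2 and 28.7 and 13.9 for the macrophage marker Adgre1. Low promoter sums thus do not show that such cells were absent. The part of the cell types in the collagen values was not tested.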

How the data were processed

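DNase-seq libraries of 2 adrenal glands, replicate 1 and replicate 2, were used as deposited, in mm10. Each library has 2 peak lists, 1 list of footprints and 1 list of genome stretches with their FDR. Peak height is the authors' deposited signal value. Heights were multiples of a fixed step per library, from which a scaling to a library total is inferred and not stated. The tolerance was 0.01 of that step plus an allowance for the rounding of printed digits, which grew with height. In the deposited FDR (q-value) list, stretches are at 0.05 or less, and the deposited footprints carry an FDR of 0.01. As to the aligner and callers, their names and settings were not given in the sources used here. Nuclei were isolated by a protocol the labels link to.

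From these files the longer peak list of each library was used, with 130945 and 157786 DHSs against 81558 and 65480 in the shorter. Genes came from GENCODE release M21 (21826 protein-coding genes, 54308 starts, repeated symbols dropped) and sequences from GRCm38.p6, and RefSeq promoters from its GRCm38.p6 annotation. DHSs within 1 kb of a start were promoter DHSs, and a DHS was assigned to the nearest start within 100 kb of its centre. Overlap between libraries needed 1 bp. Intervals of shares are 95% Wilson intervals and cover counting error alone. The code of the assignment was checked on simulated data, where 200 of 200 planted genes were recovered. The DHSs were planted where the gene's own start was nearest, at genes with long nearest-start stretches. The check therefore covers the code, and cannot show that a DHS acts on the gene it was assigned to. The members and gene lists were chosen with earlier results of these data known. Genes named are all fibrillar, type IV and multiplexin genes, the 8 highest promoters and 5 highest summed heights of the others, those open in 1 library or in none, 7 of the 8 strongest distal sites and, per partner list, the top 3 and those closed. Some sites and marker genes are not reported here. With 1 group of 2 samples, results are descriptions without tests. Alternatives were promoter windows of 500 bp and 2 kb or the 5′ end alone, distance limits of 50 and 20 kb, the shorter list, the 50000 strongest DHSs, other class boundaries, distal DHSs alone, scaling to the library's summed height, a stricter overlap (0.5 of the shorter DHS) and each library alone. Assignment by gene body first was added after seeing the data. Python 3.11.15, pandas 2.3.3, numpy 2.4.6, scipy 1.17.1, pysam 0.24.0 and samtools 1.23.1 were used.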

Additional observations from a re-analysis of the deposited data

How the results depend on the processing

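The count of collagen promoters open in both libraries was 34, 34 to 37 with each library alone, 25 with the shorter peak list (56.8%, against 60.6% of all genes) and 20 among the 50000 strongest DHSs (45.5%, against 57.8% of all genes), so that collagens lay below all genes in both stricter lists and above them in the longer one. The lower median promoter height of fibrillar than of type IV genes kept its direction in each setting run, with a mean difference of −0.55, −0.64 to −0.45 with each library alone, −1.14 and −0.73 with windows of 500 bp and 2 kb, −1.11 at the 5′ end alone and −1.84 with heights scaled to the library's summed height, which is another unit. The difference in DHS number, fibrillar minus type IV, was 1.25, 0 to 2.5 with each library alone, and reversed to −0.25 with the 20 kb limit, −1 among the 50000 strongest DHSs, −0.5 with Col15a1 and Col18a1 added to type IV and −1.75 with gene bodies first, an alternative chosen after seeing the data. Per 100 kb it was 2.38, 2.37 to 2.39 with each library alone, and −0.31 with the 50 kb limit, 1.10 with 20 kb, 0.33 with the shorter list, 0.20 among the 50000 strongest, 0.19 with Col15a1 and Col18a1 added and 0.70 from distal DHSs alone. The log2 ratio of median summed heights was −0.68, −1.29 to −0.06 with each library alone, and 0.26 from distal DHSs alone. The footprinted share of collagen promoter DHSs was 70.5%, 59.7 to 81.3% with each library alone, and 86.5% among the 50000 strongest. The shared part of collagen DHSs was 60.7%, 60.4 to 61.0% in each library alone, 61.4% and 65.0% with the 50 and 20 kb limits, 65.6% with the shorter list, 77.4% among the 50000 strongest and 59.1% with an overlap of 0.5 of the shorter DHS. Fewer DHSs in the stricter lists lower the counts by construction, and the cause of the other changes was not tested. Of the single-gene promoter heights, 3 of 44 moved at the 5′ end alone and 7 with the shorter list, and 20 of 44 summed heights moved with the shorter list. No paired analysis was possible because the libraries form 1 group. Replicate 2 had the lower heights and the longer list, so sites of low height are the least certain, and a closed promoter means that no DHS was detectable at this depth.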

Other observations

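Assigning DHSs inside a gene to that gene changed some long collagens much more than others. Col25a1, a transmembrane collagen of neurons in mouse, had 25 DHSs in replicate 1 and 41 in replicate 2 when gene bodies came first, and 9 and 12 by nearest start. Col27a1 had 22 and 14 by gene body and 12 and 9 by nearest start. Col4a2 had 18 and 21 by gene body and 6 and 4 by nearest start, and Col4a1 had 25 and 26 by gene body and 29 and 34 by nearest start. Col5a1, Col1a1, Col15a1 and Col18a1 had the same numbers under both assignments in each library.

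AP-1 letters stood in 16 of 87 distal fibrillar DHSs in replicate 1 (18.4%) and 13 of 91 in replicate 2 (14.3%), and in 14 of 41 distal type IV DHSs in replicate 1 (34.1%, 95% Wilson interval 21.6 to 49.5%) and 13 of 59 in replicate 2 (22.0%, 13.4 to 34.1%). The intervals of the type IV shares are wide, and the difference was not tested. With promoter DHSs counted, Col4a1 and Col4a2 together held 35 of the 52 type IV DHSs in replicate 1 and 38 of the 71 in replicate 2. The type IV shares thus rest largely on 1 locus, and the intervals treat its DHSs as independent. The type VI genes Col6a1 and Col6a2 on chromosome 10 lie 102538 bp apart by their starts and together had 14 and 17 DHSs with summed heights of 41.8 and 24.2.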
